A study of Mus musculus with 4 samples.

Results

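The nuclear pore and nuclear transport genes are 40 mouse genes, 27 for nucleoporins and 13 for transport receptors and the proteins of the Ran cycle. They were chosen by name as a functional group with earlier results of these data known, in which the ratio of DAPT over vehicle and both colour channels had been seen. The values of that contrast are therefore a description for these genes. Which of them passed the threshold of the fit over all genes is stated beside the share of all genes that did, and supports nothing further. A probe with a matching accession was found for 39 of the 40 genes, among 32970 genes and unnamed transcripts on the array. These 39 genes had 66 probes, of which 65 passed the filter on dim signal, and no gene was lost to that filter. Nup205, a large protein of the inner ring, was not analysed here.

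Nuclear pore complexes are the channels through the nuclear envelope. Rings of scaffold nucleoporins anchor flexible nucleoporins rich in phenylalanine and glycine (FG) that fill the channel and let through only cargo held by a transport receptor. Importins and exportins take the direction of travel from Ran, a GTPase that is loaded with GTP on chromatin and hydrolyses it in the cytoplasm. In metazoans the pore is taken apart and rebuilt at each division, and dividing cells also insert new pores during interphase.

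Basal cells sorted by flow cytometry from the prostates of adult FVB mice were grown as spheres and given DMSO, the vehicle, or the γ-secretase inhibitor DAPT at 5 µM, with fresh medium every 24 h. γ-Secretase cuts Notch receptors and so sets free the fragment that acts in the nucleus. There were 2 vehicle and 2 DAPT arrays, all in the same dye orientation and on 1 slide, each setting sphere RNA (red) against a universal mouse reference RNA (green). No label states that replicate arrays stem from different cultures or mice, so the errors and p-values cover only how far these arrays differ, which may be technical, and their number limits the precision.

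In red, 63.7% to 69.5% of probe spots on an array exceeded background clearly by the scanner software's own test, and none was saturated. The software marked 11.5% and 29.2% of spots as non-uniform or outlying on the vehicle arrays and 49.6% and 50.9% on the DAPT arrays, and 12 of the 39 genes were marked on 3 or 4 arrays. The part of this difference in the results was not tested. The limma fit covered 21472 genes, of which 605 were higher and 858 lower with DAPT at an adjusted p under 0.05, or 6.81% in either direction. The median change of all genes was -0.06 on the log2 scale, and it moved to 0.11 where arrays were median-centred and not loess-corrected. The share of calls that were higher moved with it from 41.4% to 69.8%, and to 27.5% with scale normalization. The median log2 ratio over the reference was 4.18 with vehicle and 4.23 with DAPT for 8 basal markers, and 3.52 and 3.30 for 6 luminal markers, while the luminal gene Pbsn did not pass the filter on dim signal.

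Most nuclear pore and transport genes had a higher ratio with DAPT than with vehicle, by small amounts. Of the 39 genes, 31 had a change above 0, against 43.3% of all genes, and their median change was 0.36 against -0.06 for all genes. The DAPT arrays both lay above the vehicle arrays for 22 of the 39, against 21.8% of all genes, and both below for 3, against 31.9%. At an adjusted p under 0.05 over all genes, 6 of the 39 were higher, against 2.82% of all genes, and 0 were lower, against 4.0%. At an unadjusted p under 0.05 from limma, 14 were higher and 2 lower, where 4970 of all 21472 genes passed in either direction. The genes past the threshold were Nup107, Nup85, Nup43, Nup62, Kpna2 and Rcc1, that is, 3 scaffold proteins, a channel protein, an import receptor and the exchange factor of Ran.

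**Figure D1:**
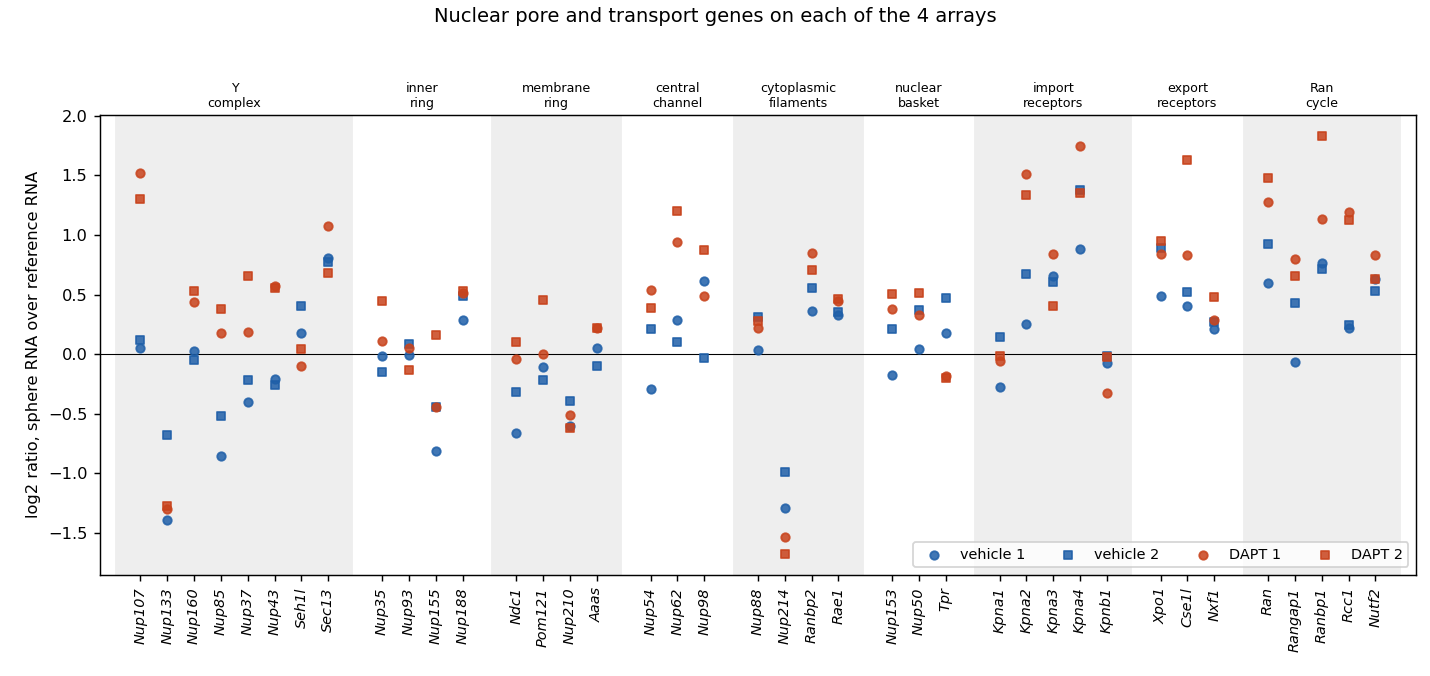
Log2 ratio of sphere RNA over reference RNA (vertical axis) for each of the 39 genes on each array, grouped by role, with vehicle arrays in blue and DAPT arrays in orange-red. Nup107, Nup85, Nup62 and Rcc1 show a clear gap between the groups, while Kpnb1, Nup93 and Kpna3 show mixed colours.

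Single arrays decided several of these calls. Without DAPT replicate 2, 3 of the 6 passed (Nup107, Kpna2 and Rcc1), with Nup85 at 0.86, Nup62 at 0.74 and Nup43 at 0.81. Without vehicle replicate 2, Nup62 at 0.79 and Nup43 at 0.77 did not pass, without vehicle replicate 1 Kpna2 at 0.75 did not, and without DAPT replicate 1 Nup43 at 0.79 did not. In that last case Nup37 (0.96), Cse1l (1.17) and Ranbp1 (1.09), whose DAPT arrays lay apart, passed as well. Nup107 and Rcc1 passed with any array left out. In these fits the lone array of a group is assumed to vary like those of the other group.

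The promoters of the genes past the threshold are shown because these genes were higher together, and RefSeq (GRCm38.p6) gives 300 bases, from 250 before to 50 after the start, for 33 of the 40 genes and for 4 of these 6. Capitals mark the motifs searched on both strands: CCAAT, the CHR element TTTGAA of cell cycle genes, the E2F core TTCGCGC or TTGGCGC, the E-box CACGTG, the NRF1 core GCATGCG and the RBPJ core GTGGGAA of Notch targets. The windows are chr10:117792656-117792955 (minus strand) for Nup107, chr7:44815838-44816137 (plus strand) for Nup62, chr11:106999476-106999775 (minus strand) for Kpna2 and chr4:132345701-132346000 (minus strand) for Rcc1.
Nup107: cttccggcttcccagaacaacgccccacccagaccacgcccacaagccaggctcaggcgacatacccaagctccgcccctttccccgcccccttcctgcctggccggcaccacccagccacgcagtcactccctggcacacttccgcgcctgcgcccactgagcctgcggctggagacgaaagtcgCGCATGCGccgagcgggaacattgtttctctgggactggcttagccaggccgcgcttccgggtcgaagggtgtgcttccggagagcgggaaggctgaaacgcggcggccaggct
Nup62: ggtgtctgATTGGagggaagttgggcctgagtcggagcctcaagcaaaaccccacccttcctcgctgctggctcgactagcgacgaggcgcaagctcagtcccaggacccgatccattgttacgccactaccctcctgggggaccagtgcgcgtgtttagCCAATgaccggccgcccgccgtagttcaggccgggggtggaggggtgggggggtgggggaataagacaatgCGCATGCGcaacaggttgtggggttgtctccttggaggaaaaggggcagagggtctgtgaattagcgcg
Kpna2: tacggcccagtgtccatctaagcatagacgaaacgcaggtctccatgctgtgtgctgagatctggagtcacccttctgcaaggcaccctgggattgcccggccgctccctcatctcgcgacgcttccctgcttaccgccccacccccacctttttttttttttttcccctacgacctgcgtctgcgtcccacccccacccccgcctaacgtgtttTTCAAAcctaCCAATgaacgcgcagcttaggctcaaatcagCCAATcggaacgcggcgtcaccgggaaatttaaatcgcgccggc
Rcc1: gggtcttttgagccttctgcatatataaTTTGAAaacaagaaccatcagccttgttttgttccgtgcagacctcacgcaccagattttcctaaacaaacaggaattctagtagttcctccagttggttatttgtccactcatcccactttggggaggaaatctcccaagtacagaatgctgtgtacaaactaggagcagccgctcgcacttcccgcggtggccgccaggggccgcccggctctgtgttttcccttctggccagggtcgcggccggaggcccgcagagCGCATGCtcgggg

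Nup107, Nup62 and Rcc1 held the NRF1 core, in Nup107 and Nup62 as a palindrome that matches on both strands at overlapping positions. Over the 38 member promoters 6 held it (15.8%), those of Nup107, Nup62, Nup50, Ran, Ranbp1 and Rcc1, against 3.58% of all 32851 promoters. CCAAT was in 42.1% of member promoters against 37.4% of all, TTTGAA in 28.9% against 17.9%, the E-box in 13.2% against 7.15% and the E2F core in 7.89% against 3.89%. The RBPJ core was in 0 of 38 member promoters against 6.38% of all. Of the genes past the threshold, Kpna2 held CCAAT and TTTGAA, Nup62 CCAAT and Rcc1 TTTGAA. These matches describe letters in a short window, and the motifs were chosen after the changes were known.

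The Y complex, the branched unit of the outer rings that coats the membrane on both faces of the pore, is the largest of the roles. Of its 8 genes 3 were past the threshold upward and 0 downward, against 2.82% and 4.0% of all genes. A change above 0 was found for 6, against 43.3% of all genes, and the median was 0.61 against -0.06. Nup107, in the stem of the Y, had log2 ratios of 0.05 and 0.12 on the vehicle arrays and 1.52 and 1.30 on the DAPT arrays. Vehicle spheres were near the level of the reference and DAPT spheres above it, and the groups did not overlap. The change of Nup107 was 1.33 ± 0.20 (SE), or 2.51-fold, larger than that of 99.7% of all genes.

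Nup85, in a short arm of the Y, stood at -0.85 and -0.52 with vehicle and at 0.17 and 0.38 with DAPT, below the reference and above it. The change of Nup85 was 0.96 ± 0.21 (1.95-fold). Nup43, a propeller protein of the same complex, stood at -0.21 and -0.25 with vehicle and 0.57 and 0.55 with DAPT, with the arrays of each group almost on top of each other. Its change was 0.80 ± 0.19 (1.74-fold). Nup37, a further propeller protein, differed by 0.73 ± 0.22 and Nup160, in the other short arm, by 0.49 ± 0.19, and neither passed although the groups did not overlap for either.

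The remaining Y genes went another way or hardly differed. For Nup133, at the tip of the stem, the vehicle arrays lay on both sides of the DAPT arrays, and the change was -0.25 ± 0.24. Seh1l, which also serves in an amino acid sensing complex at the lysosome, differed by -0.32 ± 0.20, and Sec13, which is shared with the coat of vesicles leaving the endoplasmic reticulum, by 0.09 ± 0.21. On the probes that stand for the genes, the changes within this complex spanned -0.32 to 1.33. The lower end depends on the probe, since a second Seh1l probe gave 0.11 ± 0.19.

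The inner ring joins the outer rings to the channel, and none of its 4 measured genes passed. Nup155 had the largest change there. It stood at -0.81 and -0.44 with vehicle and -0.44 and 0.16 with DAPT, so the groups overlapped, and its change was 0.48 ± 0.24. Nup35, which bends the membrane, differed by 0.36 ± 0.20, Nup188 by 0.13 ± 0.20 and Nup93, the hub of the ring, by -0.08 ± 0.20.

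In the membrane ring, which holds the pore in the envelope, none of the 4 genes passed. Ndc1, a transmembrane nucleoporin, had ratios of -0.66 and -0.32 with vehicle and -0.04 and 0.10 with DAPT. The groups did not overlap, and the change was 0.52 ± 0.21. Pom121, the transmembrane protein with FG repeats, differed by 0.39 ± 0.21, Aaas, which Ndc1 tethers to the pore, by 0.24 ± 0.19, and Nup210 by -0.07 ± 0.20. The Nup210 probe was well above background in red on 3 of the 4 arrays, while every other measured gene of the group of 39 was so on all 4.

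The central channel genes all had changes above 0. Nup62, the FG protein that lines the channel together with Nup54, had ratios of 0.29 and 0.11 with vehicle and 0.94 and 1.21 with DAPT. The groups stood apart by more than the spread within either, and the change was 0.88 ± 0.20 (1.84-fold). Nup54 at 0.50 ± 0.22 and Nup98 at 0.39 ± 0.24 did not pass, and the vehicle arrays of Nup98 spanned 0.61 to -0.03.

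Nup214 and Tpr, at the asymmetric ends of the pore, had changes below 0 on the probes that stand for them. On the cytoplasmic side, which releases exported cargo, Nup214 stood at -1.29 and -0.99 with vehicle and -1.53 and -1.67 with DAPT, a change of -0.46 ± 0.20 with no overlap. A second Nup214 probe gave -0.06 ± 0.20 with overlapping groups. Ranbp2, a giant filament protein that is also a SUMO ligase, differed by 0.32 ± 0.20, Rae1, an mRNA export factor, by 0.11 ± 0.19 and Nup88, the partner of Nup214, by 0.07 ± 0.20. Tpr is the coiled-coil backbone of the nuclear basket. The probe that stands for Tpr gave 0.18 and 0.48 with vehicle and -0.18 and -0.20 with DAPT, a change of -0.52 ± 0.20 that did not pass, and a second probe gave 0.44 ± 0.21. Nup153 at 0.42 ± 0.21 and Nup50 at 0.22 ± 0.21, both basket proteins that bind importins, did not pass either.

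**Figure D2:**
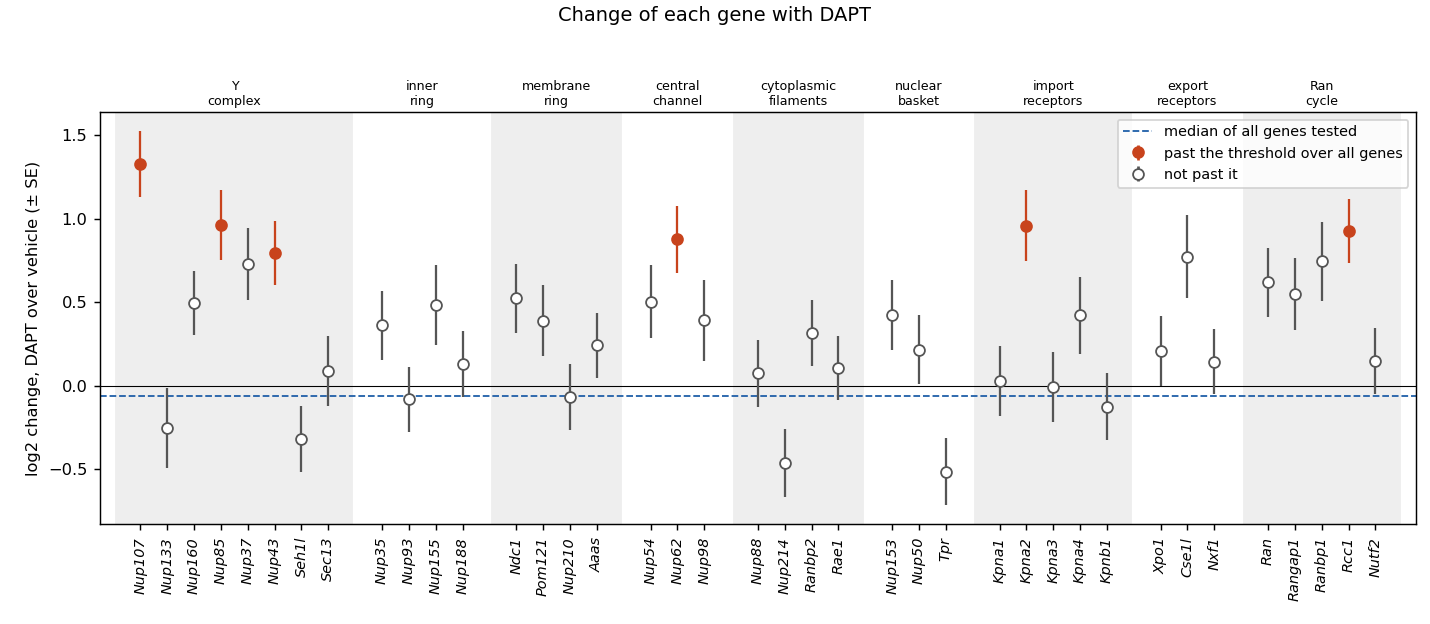
Log2 change of DAPT over vehicle with its standard error from limma (2 arrays a group) for each gene, grouped by role. Filled points are past an adjusted p of 0.05 over all genes, and the dashed line marks the median of all genes at -0.06. The filled points run from 0.80 for Nup43 to 1.33 for Nup107, and the lowest point is Tpr at -0.52.

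The 5 import receptor genes ranged in change from -0.13 to 0.96 on the probes that stand for them. Kpna2, an importin α that binds the nuclear localization signal of cargo and is typical of dividing cells, had ratios of 0.25 and 0.67 with vehicle and 1.51 and 1.33 with DAPT. Its groups did not overlap and its change was 0.96 ± 0.21 (1.94-fold). The other importin α genes stood nearer 0, with Kpna4 at 0.42 ± 0.23 (-0.25 and -0.01 on its other probes), Kpna1 at 0.03 ± 0.21 and Kpna3 at -0.01 ± 0.21. Kpnb1, the importin β that carries importin α and its cargo through the channel, had -0.07 and -0.02 with vehicle and -0.32 and -0.02 with DAPT. The groups overlapped and the change was -0.13 ± 0.20, while a second Kpnb1 probe gave 0.71 ± 0.21. Differences between these receptors were not tested.

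All 3 export receptor genes had changes above 0 and none passed. Cse1l, the exportin that returns importin α to the cytoplasm, had 0.40 and 0.52 with vehicle and 0.84 and 1.63 with DAPT. The groups did not overlap, but the DAPT arrays were 0.56 apart as an SD, and the change was 0.77 ± 0.25, the highest among genes that did not pass. Xpo1, the main exporter of proteins with a leucine-rich signal, had 0.49 and 0.89 with vehicle and 0.84 and 0.95 with DAPT, so the groups overlapped at a change of 0.21 ± 0.21. Nxf1, the receptor for bulk mRNA, differed by 0.14 ± 0.20.

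The Ran cycle genes all had changes above 0, with a median of 0.62, and the groups overlapped only for Nutf2. Rcc1, the chromatin-bound protein that loads Ran with GTP, stood at 0.22 and 0.25 with vehicle and 1.19 and 1.13 with DAPT, with little spread within either group. Its change was 0.93 ± 0.19 (1.90-fold). Ran itself had 0.59 and 0.93 with vehicle and 1.28 and 1.48 with DAPT, a change of 0.62 ± 0.21 that did not pass although the groups stood apart. Ranbp1 at 0.74 ± 0.24 and Rangap1 at 0.55 ± 0.22, which help Ran to hydrolyse GTP outside the nucleus, did not pass, nor did Nutf2, the carrier that brings Ran back in, at 0.15 ± 0.20. Ran and Nutf2 have near-identical retrocopies in the mouse genome that their probes may not tell apart.

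Relative to the reference RNA, 20 of the 39 genes were above 0 on both vehicle arrays, against 40.7% of all genes. On both DAPT arrays 29 of the 39 were above 0, and the matching share of all genes was not computed. The median ratio of the 39 genes was 0.18 with vehicle and 0.45 with DAPT, against -0.03 and -0.04 for all genes. Those below the reference on both arrays numbered 11 with vehicle and 6 with DAPT. Nup85, Nup37, Nup43, Nup35 and Pom121, 5 genes in all, were below it on both vehicle arrays and above it on both DAPT arrays. Shares of all genes were not computed for these counts below or across the reference. In RNA of whole spheres, more cells with a high level and a higher level per cell cannot be told apart.

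A ratio can move through either channel, so both were looked at after loess and Aquantile normalization, in log2 signal. In the red sample channel 30 of the 39 genes were higher with DAPT, with a median difference of 0.51 against -0.04 for all genes. In the green reference channel, which held the same RNA on every array, 23 were higher, with a median of 0.07 against 0.04. Both DAPT arrays lay above both vehicle arrays in red for 20 of the 39 genes and below for 2, against 21.5% and 25.1% of all genes, and in green for 11 and 4, against 22.1% and 18.4%. The 6 genes past the threshold in ratio were each higher in red with no overlap, by 1.20 for Nup107, 1.40 for Nup85, 0.67 for Nup43, 1.11 for Nup62, 1.26 for Kpna2 and 1.37 for Rcc1. Their green signals differed by -0.13, 0.43, -0.13, 0.24, 0.30 and 0.44 in the same order, so less of the change lay in the reference than in the sample.

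For 13 genes the green channel moved further than the red. Nup133 was 0.80 higher in red but 1.05 higher in green, Seh1l 0.64 and 0.95, and Kpnb1 0.57 and 0.69, so each had more red signal with DAPT and a ratio below 0. For Nup155 the red difference was -0.0025 and the green difference -0.49. Ran was 1.24 higher in red and 0.63 higher in green. In the red channel alone no gene of the 39 passed an adjusted p of 0.05 with limma (8 were higher and 0 lower at an unadjusted p under 0.05). Over all 21472 genes that fit called 0 higher and 1 lower, and 2616 passed the unadjusted threshold in either direction.

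**Figure D3:**
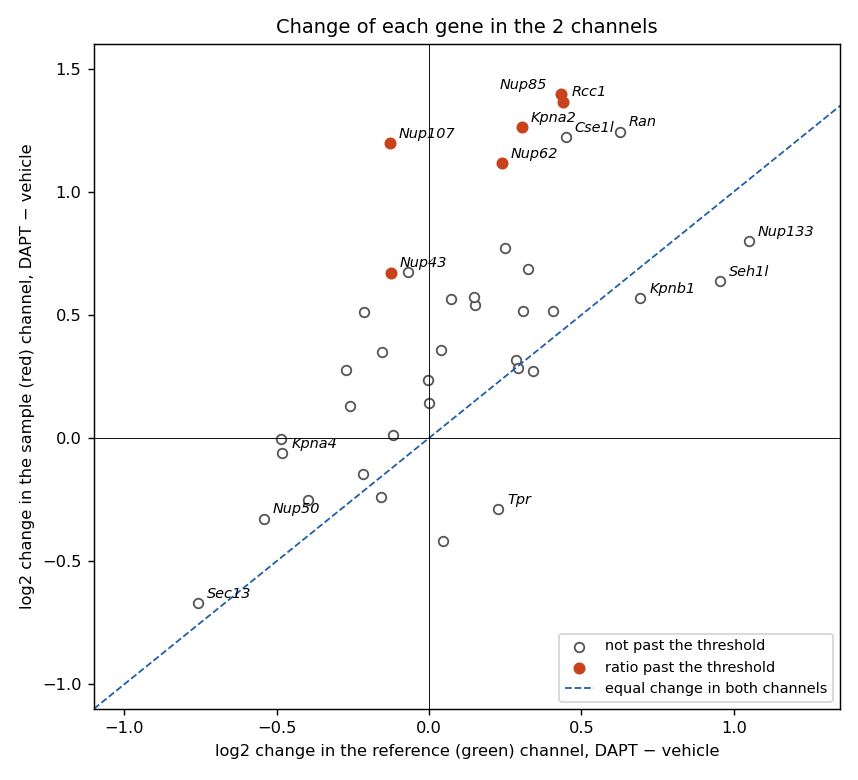
Log2 difference between DAPT and vehicle in the green reference channel (horizontal axis) and the red sample channel (vertical axis), 1 point a gene, mean of 2 arrays a group. Genes on the dashed line changed equally in both channels and have a ratio change of 0. The 6 filled points lie well above the line, with red differences of 0.67 to 1.40, while Nup133, Seh1l and Kpnb1 lie below it.

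Other probes of the same genes gave a second reading. Of the 39 genes 19 had more than 1 kept probe, with 26 further probes, of which 18 had the sign of the probe used and 8 the opposite sign. The second Kpna2 probe gave 0.17 and 0.45 with vehicle and 1.41 and 1.57 with DAPT, a change of 1.18 ± 0.20. Nup160 gave 0.49, 0.63 and 0.94 on its 3 probes, and the last of these was past the threshold when each probe was tested on its own (adjusted p over probes of 0.0174 in limma). Cse1l gave 0.77 and 0.70, and Rangap1 0.55 and 0.51.

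For some genes the probes disagreed. The second Tpr probe stood at 0.10 and 0.49 with vehicle and 0.68 and 0.78 with DAPT, a change of 0.44 ± 0.21, while the first gave -0.52. Neither set of groups overlapped, so the lowest value among the 39 genes depends on the probe. The second Kpnb1 probe stood at 0.52 and 0.87 with vehicle and 1.27 and 1.53 with DAPT, a change of 0.71 ± 0.21 against -0.13 on the first. The 2 Seh1l probes, which carry accessions of different transcripts, gave -0.32 and 0.11. What each probe binds was not examined, since the files used here hold no probe sequences.

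The rest of the pathway was read from a list of 51 further genes set by function, of which 46 were measured above background. With DAPT 5 of the 46 rose and 0 fell in limma, against 2.82% and 4.0% of all genes. At an unadjusted p under 0.05 in limma, 15 were higher and 2 lower, where 4970 of all 21472 genes passed in either direction. The list median was 0.26 against -0.06 for all genes. Xpo4, an exportin, had -0.45 and -0.27 with vehicle and 0.71 and 1.00 with DAPT, a change of 1.22 ± 0.20 (adjusted p = 0.00431). Ipo7, an importin for ribosomal proteins and histones, had -0.10 and 0.12 with vehicle and 0.97 and 1.34 with DAPT, a change of 1.15 ± 0.21 (adjusted p = 0.00744). Both kept their groups apart by more than the spread within them.

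Thoc3 of the mRNA export complex THO rose by 0.90 ± 0.23 (adjusted p = 0.039), Snupn, the import adaptor of splicing snRNPs, by 0.81 ± 0.20 (0.033) and Ahctf1, the nucleoporin that seeds pore assembly on chromatin, by 0.76 ± 0.21 (0.0483). By class 2 of 12 other import receptors, 1 of 6 other export receptors, 1 of 7 other nucleoporins, 1 of 17 mRNA export genes and 0 of 4 other Ran proteins passed. Xpo4 and Ipo7 passed with any array left out, Ahctf1 did not pass without vehicle replicate 1 (0.55) or either DAPT array (0.78 without replicate 1, 0.74 without replicate 2), Snupn without vehicle replicate 2 (0.75) or DAPT replicate 2 (0.66) and Thoc3 without vehicle replicate 2 (0.56). Thoc3 was at 0.07 with the processed signals and 0.36 with median centring. Without DAPT replicate 2 the median change of the 46 was 0.24. Without vehicle replicate 1 the cap-binding gene Ncbp2, named after its value was seen, was at -0.84.

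The nuclear envelope and lamina, in which the pores sit, changed in both directions. Of 12 genes 1 rose and 2 fell, against 2.82% and 4.0% of all genes. The lamin gene Lmnb2 rose by 0.88 ± 0.20 (adjusted p = 0.0201). Syne2 and Sun2, which tie the nucleus to the cytoskeleton, fell by 0.91 ± 0.19 (adjusted p = 0.0154) and 0.80 ± 0.20 (adjusted p = 0.0326), and the list median was 0.38. None of the 3 passed each time an array was left out: Lmnb2 was at 0.78 without DAPT replicate 2, Syne2 at -0.83 without DAPT replicate 1, and Sun2 at -0.75 without vehicle replicate 1 and -0.66 without DAPT replicate 1. None of the 3 passed with the processed signals (Lmnb2 0.75, Syne2 -0.57, Sun2 -0.20) or with median centring (0.57, -0.59 and -0.39 in that order). Sun2 was at 0.11, the opposite sign, in the sample channel alone.

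Of 6 measured Notch targets and receptors 2 fell and 0 rose, against 4.0% and 2.82% of all genes. Heyl fell by 0.86 ± 0.19 (adjusted p = 0.02) and Notch3 by 0.81 ± 0.21 (adjusted p = 0.0378). Notch3 differed by -0.26 in red and 0.56 in green, so more of its change lay in the reference than in the sample. Its red signal was well above background on 3 of the 4 arrays. Heyl differed by -0.65 in red and 0.21 in green. With the processed signals Heyl at -0.92 did not pass, while Notch3 at -1.99 did. Heyl did not pass without DAPT replicate 2 (-0.86), nor Notch3 without vehicle replicate 2 (-0.73) or DAPT replicate 1 (-0.61).

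Proliferation genes were higher beside the pore and transport genes. Of 20 measured 12 rose and 0 fell in limma, against 2.82% and 4.0% of all genes. At an unadjusted p under 0.05 in limma, 17 were higher and 0 lower, where 4970 of all 21472 genes passed in either direction. The list median was 0.79, and the largest changes were Bub1b at 1.32, Ccna2 at 1.21, Mcm3 at 1.16 and Top2a at 1.05. The summed red signal of the proliferation genes ranged from 26261 to 32218 on the vehicle arrays and from 43923 to 47292 on the DAPT arrays. For the 39 pore and transport genes this sum ranged from 33945 to 40974 and from 47682 to 50308. The part of proliferation in these values was not tested.

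Markers of fibroblasts, which are not basal cells, were lower with DAPT. Of 10 markers 8 fell and 0 rose, against 4.0% and 2.82% of all genes, with a median of -1.52. Their summed red signal ranged from 40142 to 52880 with vehicle and from 11988 to 12715 with DAPT. Mgp was at -2.44 ± 0.22 and Postn at -2.39 ± 0.21, and all markers but Lum, 9 of 10, exceeded background clearly in red on all 4 arrays. Of 6 smooth muscle markers 1 fell, Myh11 by 1.16 ± 0.22, and 0 rose. Of 5 immune markers 0 changed in limma, also at an unadjusted p under 0.05. Of 4 endothelial genes only Pecam1 passed the filter on dim signal, at a change of 0.23 ± 0.20 that did not pass the threshold, and Cdh5, Kdr and Tek did not pass the filter. The part of these cells in the results was not tested.

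**Figure D4:**
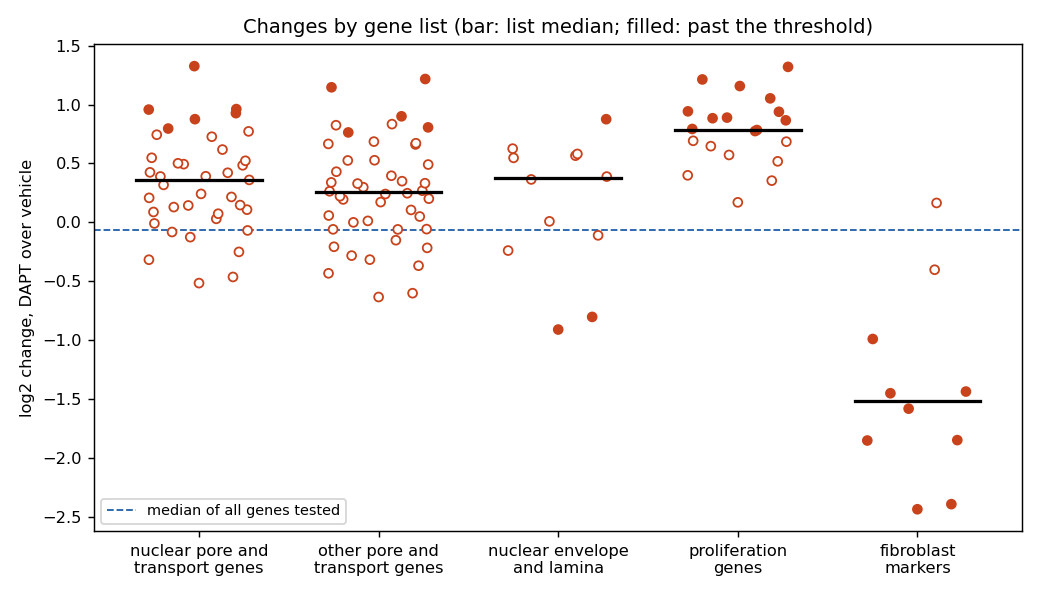
Log2 change of DAPT over vehicle (vertical axis) for each measured gene of 5 lists, with the list median as a bar, genes past the threshold filled and the median of all genes as a dashed line at -0.06. The medians stand at 0.36 for the nuclear pore and transport genes, 0.26 for other pore and transport genes, 0.38 for the envelope and lamina, 0.79 for proliferation genes and -1.52 for fibroblast markers.

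How the 6 genes past the threshold fared under other processing is shown gene by gene. Nup107 missed the threshold in 2 of them, the red channel by itself (1.20) and the fit that kept the spots of extreme local background (0.92). With those spots kept none of the 39 genes passed, higher or lower, in limma (8 higher and 1 lower at an unadjusted p under 0.05). That choice took nearly every call of the series with it, since over all genes 4 were then higher and 83 lower, in place of 605 and 858. At an unadjusted p under 0.05 in that limma fit, 2348 of all 21472 genes passed in either direction. With the processed signals Nup107 at 1.37 and Nup85 at 1.32 passed and no other of the 39, where 1.33% of all genes were higher. With median centring 11 of the 39 were higher and 0 lower, where 5.66% of all genes were higher. With scale normalization Nup62 at 0.75 and Kpna2 at 0.75 did not pass. With marked spots left out Nup107 passed at 1.22 and Nup43 and Nup62 did not, while Nup85, Kpna2 and Rcc1 could not be fitted. Each of the 6 had a change above 0 under all alternatives run on it.

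**Figure D5:**
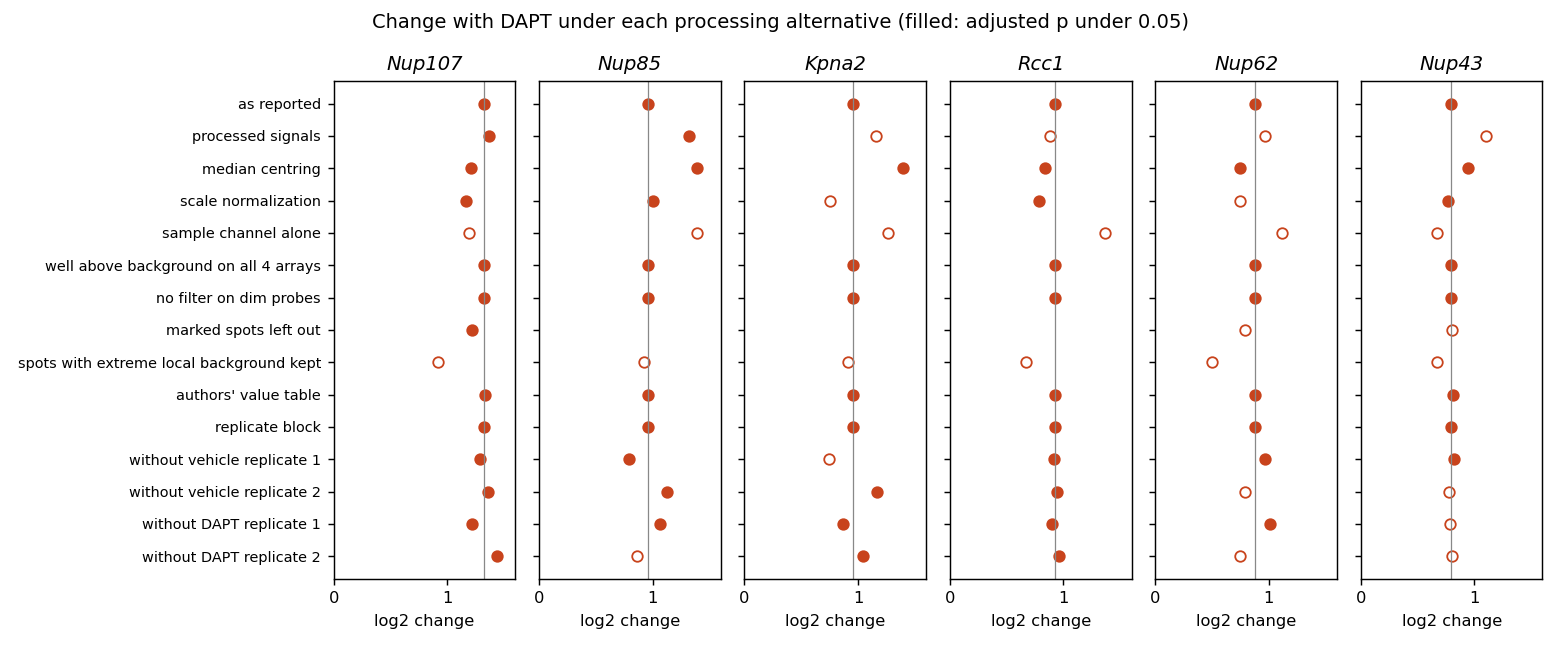
Log2 change of DAPT over vehicle (horizontal axis) of the 6 genes past the threshold under each processing alternative (rows), filled where the adjusted p was under 0.05, with a grey line at the value reported. Values of Nup107 lie between 0.92 and 1.44, and those of Nup62 between 0.50 and 1.11.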

How the data were processed

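RNA of 4 sphere samples was measured on 4 arrays with 2 colours, from 2.5 µg of total RNA each. Per the file headers, the scanner files were written by Agilent Feature Extraction 10.7.3.1 and hold spot and local background intensity as median pixel brightness, not normalized, beside processed intensity values that the software had background-subtracted and dye-normalized. The deposited scanner files also hold a log10 ratio, which served to check the authors' deposited table of log2 values, whose normalization no source used here gives. That table correlated at 0.869 to 0.902 with the scanner log ratios and at 0.9996 to 0.9998 with the loess-corrected ratios used here. It is therefore sample over reference and, with column medians of 0.00072, -0.011, -0.015 and -0.011, centred near 0. With its values the same 6 of the 39 genes were higher and 0 lower, where 2.75% of all genes were higher.

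Background was corrected with limma 3.58.1 (normexp, offset 50) in R 4.3.3, with loess within arrays and control spots at weight 0. On DAPT 2, 13 spots were left out because their local background exceeded the median by over 5 times. Probes were named through RefSeq transcript accessions (24375 of 41174 named). A probe was kept if its red signal clearly exceeded background on each array of at least 1 group, and the brightest stood for its gene. Groups were compared with lmFit and eBayes, two-sided, with Benjamini-Hochberg adjustment over 21472 genes and a threshold of 0.05. The members and lists were chosen with earlier results of these data known. Values on each array are given for members past the threshold, for the largest change in each role and for Xpo1, Kpnb1, Ran and Nup62. Further pathway genes past the threshold are named, and of each other list at most 4. Most alternatives changed 1 step at a time. The processed signals replaced background correction and normalization together. The sample channel alone put the red signal after Aquantile normalization in place of the ratio.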

Additional observations from a re-analysis of the deposited data

How the results depend on the processing

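The median change of the genes tested was above that of all genes under each alternative, and 24 of the 39 had one sign throughout. The difference ran from 0.24 to 0.55, and was 0.77 with marked spots left out, where only 5 of the genes were testable. Of the 39, 6 were higher as reported, against 2 with processed signals (1.33% of all genes), 4 with scale normalization (1.72%), 11 with median centring (5.66%), 0 in the sample channel alone (0 of all genes), 1 with marked spots left out (4.59%, 5 genes testable) and 0 with spots of extreme local background kept (0.0186%), and 0 were lower in any of these. With each array left out in turn the count ran from 3 to 8. The median of 0.36 became 0.64 with processed signals and 0.60 with median centring. It was lower at 0.20 with extreme spots kept, 0.22 with scale normalization, 0.23 without vehicle replicate 1 and 0.24 without DAPT replicate 2. Without marked spots the median was 0.79 over the 5 testable genes, Nup107, Nup43, Nup62, Pom121 and Ran. That value cannot be set against the 0.36 of all 39. Of the 46 further genes, 5 rose as reported, against 1 with processed signals, 14 with median centring, 0 in the sample channel alone, 3 with scale normalization, 1 without marked spots, 0 with extreme spots kept, and 3 to 7 with an array left out, where 0 to 1 were lower. Sun2 was at 0.11 in the sample channel alone. The cause of these differences was not tested. With the replicate number as a replicate block, 9 of the 39 and 10 of the 46 were higher, where 4.06% of all genes were. No label says what samples of one number share. The difference between replicates 1 and 2 correlated between the groups at 0.09 over all genes and at -0.21 over the 39 genes.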
